A study of Homo sapiens with 6 samples.

Results

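Chemokine receptors are G protein-coupled receptors that steer leukocytes along gradients of small secreted proteins, the chemokines. The 9 genes described here, CCR4, CCR6, CCR7, CCR8, CCR10, CXCR3, CXCR4, CXCR5 and CX3CR1, encode signalling chemokine receptors that lie outside the receptor cluster on the short arm of chromosome 3 at band 3p21. They were chosen by symbol, and each had 1 row among the 36601 genes of the count table. Ligand binding activates Gi proteins and, through their βγ subunits, phosphoinositide 3-kinase and the small GTPases that drive migration, while receptor kinases, arrestins and RGS proteins end the signal. In NK cells, CXCR3 and CX3CR1 are known for recruitment into inflamed tissue, CXCR4 for retention in the bone marrow, and CCR7 for entry into lymph nodes. CCR6 responds to CCL20 at epithelial surfaces.

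RNA was sequenced from NK92 (NK-92), an IL-2-dependent human line derived from an NK cell lymphoma. The cells carried a control shRNA (shCtrl, 3 libraries) or an shRNA against the long non-coding RNA miR155HG (shmiR155HG, 3 libraries), and both groups were stimulated with 1000 U/mL of IL-2 plus 10 ng/mL of IL-12 for 12 h before RNA extraction. All libraries come from this 1 line, and whether those of a group come from separate transductions or cultures is not given in the sources used here, so p-values measure the spread between these libraries. The comparison asks which transcripts, here receptor mRNAs, differ once miR155HG is silenced.

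The total read count lay between 33454786 and 39157264 per library. Values of single libraries are given in the order of replicates 1, 2 and 3. MIR155HG itself had 73, 67 and 62 counts in shCtrl libraries, and 28, 19 and 10 in shmiR155HG libraries, so that the targeted RNA was lower in each shmiR155HG library. Of 13 NK cell markers 11 passed the expression filter, with a summed level of 4060.4 to 4092.1 CPM (counts scaled to library size) in shCtrl and 3584.4 to 3720.4 CPM in shmiR155HG libraries. Within this list, to name 2 genes chosen with their values known, the granzyme gene GZMB went from a mean of 1195.3 to 542.9 CPM, while the IL-2 receptor chain gene IL2RB went from 1005.8 to 1269.7 CPM. The fall of GZMB alone was larger than that of the summed level. CD3G, CD4, CD5, CD8A, MS4A1 and LYZ had at most 5 counts in a library, and CD8B, FCN1 and MPO had none. The summed level was 71.1 to 75.7 CPM (shCtrl) and 68.7 to 78.8 CPM (shmiR155HG) for 7 T cell markers, nearly all of it TRAC, and 229.4 to 264.6 CPM and 341.0 to 344.2 CPM for 5 B cell markers, nearly all of it PAX5. For 6 myeloid markers it was 12.2 to 20.8 CPM and 10.7 to 13.8 CPM. Replication-dependent histone RNAs, most of which carry no poly(A) tail, summed to 69.0 to 76.5 CPM in shCtrl and 125.8 to 140.4 CPM in shmiR155HG libraries, and mitochondrial transcripts took 2.13% to 2.18% and 2.35% to 2.48% of the counts. The NK and B cell marker sums, the histone RNAs and the mitochondrial share did not overlap between the groups, and their part in the results on the receptors was not tested. The T cell and myeloid marker sums overlapped. In bulk RNA, fewer cells that express a receptor and less of its RNA per cell cannot be told apart.

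miR155HG is the precursor of miR-155, so the mature sequences of both arms of its hairpin are shown to place the receptors against the microRNA. The paper proposes that miR155HG acts in NK cells independently of miR-155, so the search is a description only. Capitals mark the seed, bases 2 to 8, and the sequences are from RefSeq (GRCh38.p14, plus strand of chromosome 21, at chr21:25573983-25574006 for the 5p arm and chr21:25574022-25574043 for the 3p arm).
hsa-miR-155-5p: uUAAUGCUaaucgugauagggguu
hsa-miR-155-3p: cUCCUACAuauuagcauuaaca
The site that pairs with the 5p seed, AGCATTA, occurred in 0 of the 29 annotated transcripts of the 9 receptors, coding region and both UTRs included. Among the canonical transcripts of 19229 coding genes, 10.7% held it in the 3′UTR. The site of the 3p seed, TGTAGGA, occurred in 1 receptor transcript, an isoform of CXCR4, and in the 3′UTR of 9.08% of the canonical transcripts of coding genes. No match says only that these letters are not in these transcripts.

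Only 4 of the 9 receptors, CXCR3, CXCR4, CCR7 and CCR6, exceeded 1 CPM in 2 or more libraries, the filter used, and could be tested among 12263 genes. Of these 4, CCR6 was lower and CXCR3 was higher in shmiR155HG cells, and CXCR4 and CCR7 did not pass the test. The quasi-likelihood test of edgeR called 15.3% of all genes tested at an adjusted p under 0.05, with 8.02% lower and 7.26% higher, which is the background for this count. By the rule of the study's methods, an unadjusted P under 0.01 in the exact test of edgeR with a fold change over 1.2, the same 2 receptors were called, against 8.29% of all genes, with 3.80% lower and 4.49% higher. CXCR3 cleared this fold threshold narrowly, with a fitted fold change of 1.22, and the rule was not run with libraries left out. The groups did not overlap for CCR6 and CXCR3, as for 30.8% of all genes tested (15.6% with all shmiR155HG libraries lower and 15.2% with all higher).

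CCR6 (ENSG00000112486), the receptor for CCL20, lies on the plus strand at chr6:167111807-167139141 of hg38 and has 3 exons in its canonical transcript. Its read counts were 863, 939 and 1129 in shCtrl libraries, and 605, 442 and 352 in shmiR155HG libraries. Scaled to library size, this was 22.2, 25.7 and 29.0 CPM in the shCtrl libraries and 15.8, 11.6 and 10.5 CPM in the shmiR155HG libraries. Every shmiR155HG library lay below every shCtrl library, with a gap between 15.8 and 22.2 CPM. The mean level fell from 25.6 ± 3.40 CPM (SD, n = 3) to 12.6 ± 2.77 CPM (SD, n = 3), or by −1.02 on the log2 scale (SE 0.13, 95% interval −1.29 to −0.74, adjusted p = 4.23e-06), which left 49.4% of the shCtrl level. The exact permutation test over the 6 libraries gave p = 0.1 (two-sided), the smallest value that 3 against 3 allow. Among the receptors tested, CCR6 also varied most within a group, with a coefficient of variation of 13.2% in shCtrl and 21.9% in shmiR155HG cells. The fold change was −1.21 without shmiR155HG replicate 1, the knockdown library with the most CCR6, and −0.90 without shmiR155HG replicate 3, the one with the least, and CCR6 passed the test in both.

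CCR6 overlaps 2 antisense lncRNA genes of the count table. AL121935.1 had 4 to 31 counts per library and AL121935.2 had 0 to 8, against 352 to 1129 for CCR6. A coding gene on the same strand that spans CCR6 in GENCODE, ENSG00000272980, has no row of its own in the table, so reads from it could be counted as CCR6.

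Because the study concerns JAK–STAT signaling, the start regions of the receptors were searched for TTCNNNGAA, the palindrome that STAT dimers are known to bind, a motif chosen after the values were seen. RefSeq start windows, from 250 bases before to 50 bases after a transcript start, were at hand for 6 of the 9 receptors (12 windows), and the palindrome reads alike on both strands. It occurred in 3 of these windows, and in 7.66% of the 35116 windows of all genes. CCR6 accounts for 2 of these windows, with 3 matches between them, and CX3CR1 for the other. Genes with several starts offer more letters to match, and of the genes with at least 3 windows, as CCR6 and CX3CR1 have, 19.9% held a match in at least 1. The 3 matches of CCR6 (GRCh38.p14, plus strand) are shown with the motif in capitals, since CCR6 is the receptor that fell. A match is a description and not evidence of binding.
CCR6, chr6:167111562-167111582: gagcctTTCAGAGAActttac
CCR6, chr6:167111600-167111620: tgtaatTTCCAAGAAgaatca
CCR6, chr6:167122588-167122608: ggctatTTCTCGGAAccctct
The windows of CCR4, CXCR3, CXCR4 and CXCR5 held no match.

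CXCR3 (ENSG00000186810), the receptor for the interferon-induced chemokines CXCL9, CXCL10 and CXCL11, lies on the minus strand at chrX:71615916-71618511. Its level was 127.9, 133.8 and 125.1 CPM in shCtrl libraries, and 147.0, 155.0 and 168.3 CPM in shmiR155HG libraries. Each shmiR155HG library lay above each shCtrl library. The mean rose from 128.9 ± 4.41 to 156.8 ± 10.8 CPM (SD, n = 3 each), or by 0.28 on the log2 scale (SE 0.049, 95% interval 0.18 to 0.38, adjusted p = 1.37e-04), which is 21.6% more than in shCtrl cells. The exact permutation test gave p = 0.1. Leaving out 1 library at a time gave log2 fold changes from 0.23 to 0.33, all past the test.

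CXCR4 (ENSG00000121966), the CXCL12 receptor, lies on the minus strand at chr2:136114349-136119177. Its level was 94.1, 96.7 and 88.8 CPM in shCtrl libraries, and 94.3, 92.2 and 91.2 CPM in shmiR155HG libraries. All 3 shmiR155HG values fell within the range of the shCtrl values. The difference was −0.0097 on the log2 scale (SE 0.053, adjusted p = 0.937), with a 95% interval for the change of −7.88% to 7.11% of the shCtrl level.

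CCR7 (ENSG00000126353), which binds CCL19 and CCL21, lies on the minus strand at chr17:40553769-40565472. Its level was 48.4, 41.4 and 48.7 CPM in shCtrl libraries, and 45.3, 44.1 and 49.6 CPM in shmiR155HG libraries. The groups overlapped, and shCtrl replicate 2 was the lowest library. The difference was 0.0050 on the log2 scale (SE 0.075, adjusted p = 0.978), with a 95% interval for the change of −9.80% to 11.6% of the shCtrl level. Changes of CXCR4 and CCR7 within these intervals could not be resolved, and the sign of both turned when shCtrl replicate 2 or shmiR155HG replicate 3 was left out.

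**Figure D1:**
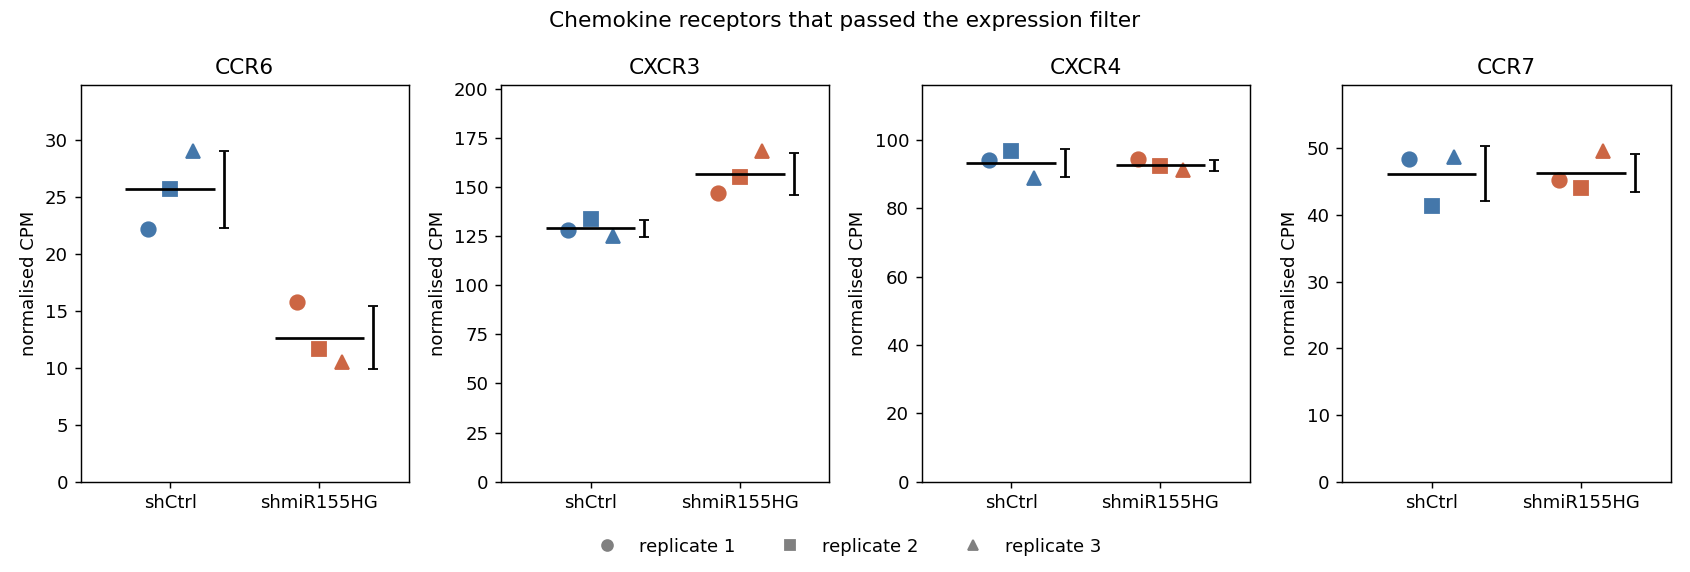
Normalised CPM (y axis, from 0) of CCR6, CXCR3, CXCR4 and CCR7 in the 3 shCtrl (blue) and 3 shmiR155HG (orange) libraries, with 1 point per library, a line at the group mean and a bar of 1 SD. CCR6 lies at 22.2 to 29.0 CPM in shCtrl and 10.5 to 15.8 CPM in shmiR155HG libraries and CXCR3 at 125.1 to 133.8 and 147.0 to 168.3 CPM, while the groups overlap for CXCR4 and CCR7.

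The CCR6 and CXCR3 values were also set beside the residual MIR155HG in the 3 knockdown libraries. The library with the most MIR155HG, replicate 1 (0.730 CPM), held the most CCR6 (15.8 CPM) and the least CXCR3 (147.0 CPM). Replicate 2 followed with 0.499 CPM of MIR155HG, 11.6 CPM of CCR6 and 155.0 CPM of CXCR3. Replicate 3, with the least MIR155HG (0.299 CPM), held the least CCR6 (10.5 CPM) and the most CXCR3 (168.3 CPM). In the shCtrl libraries, MIR155HG was 1.88, 1.84 and 1.59 CPM where CCR6 was 22.2, 25.7 and 29.0 CPM, the opposite order. CXCR3 was 127.9, 133.8 and 125.1 CPM in the same shCtrl libraries, which follows MIR155HG in neither direction. These 3 libraries per group allow no test of such an order, and MIR155HG rests on 10 to 28 counts in the knockdown libraries. Both receptors were taken up here because they had passed the test, and the share of all genes with such an order was not counted.

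To compare receptors with each other, CPM were divided by the length of the canonical transcript in kilobases (CPM per kb). CXCR3 stood highest in shCtrl cells with 79.8 ± 2.73 CPM per kb (SD, n = 3), followed by CXCR4 with 55.9 ± 2.43, CCR7 with 21.2 ± 1.89 and CCR6 with 8.17 ± 1.08 CPM per kb. In shmiR155HG cells the levels were 97.1 ± 6.68 for CXCR3, 55.5 ± 0.941 for CXCR4, 21.3 ± 1.33 for CCR7 and 4.03 ± 0.882 CPM per kb for CCR6. The order of these 4 was the same in both groups, and no 2 of them overlapped between libraries. CCR10 (0.191 ± 0.158 and 0.230 ± 0.0870 CPM per kb) and CX3CR1 (0.0430 ± 0.0401 and 0.158 ± 0.0754 CPM per kb) came next and overlapped with each other in both groups. CCR4, CXCR5 and CCR8 were lowest. With the longest transcript in place of the canonical one, CXCR3 came to 69.3 and 84.2 and CXCR4 to 42.9 and 42.7 CPM per kb in shCtrl and shmiR155HG cells.

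Summed over the 9 receptors, the level was 165.4 ± 3.05 CPM per kb (SD, n = 3) in shCtrl and 178.3 ± 6.26 in shmiR155HG cells. CXCR3 took 48.0%, 49.1% and 47.7% of this sum in shCtrl libraries, and 52.4%, 54.6% and 56.2% in shmiR155HG libraries. CCR6 took 4.28%, 4.87% and 5.69% against 2.89%, 2.11% and 1.81%. The share of CXCR4 was 34.1%, 34.4% and 32.8% in shCtrl and 32.5%, 31.5% and 29.5% in shmiR155HG libraries. This share is of a larger sum in the shmiR155HG libraries, and the level of CXCR4 itself was 55.9 CPM per kb in shCtrl and 55.5 in shmiR155HG cells. The ratio of CXCR3 to CCR6 per kb was 11.2, 10.1 and 8.39 in shCtrl libraries, and 18.1, 25.9 and 31.1 in shmiR155HG libraries. This ratio joins the 2 receptors that had already separated in opposite directions, so it is given as a description.

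**Figure D2:**
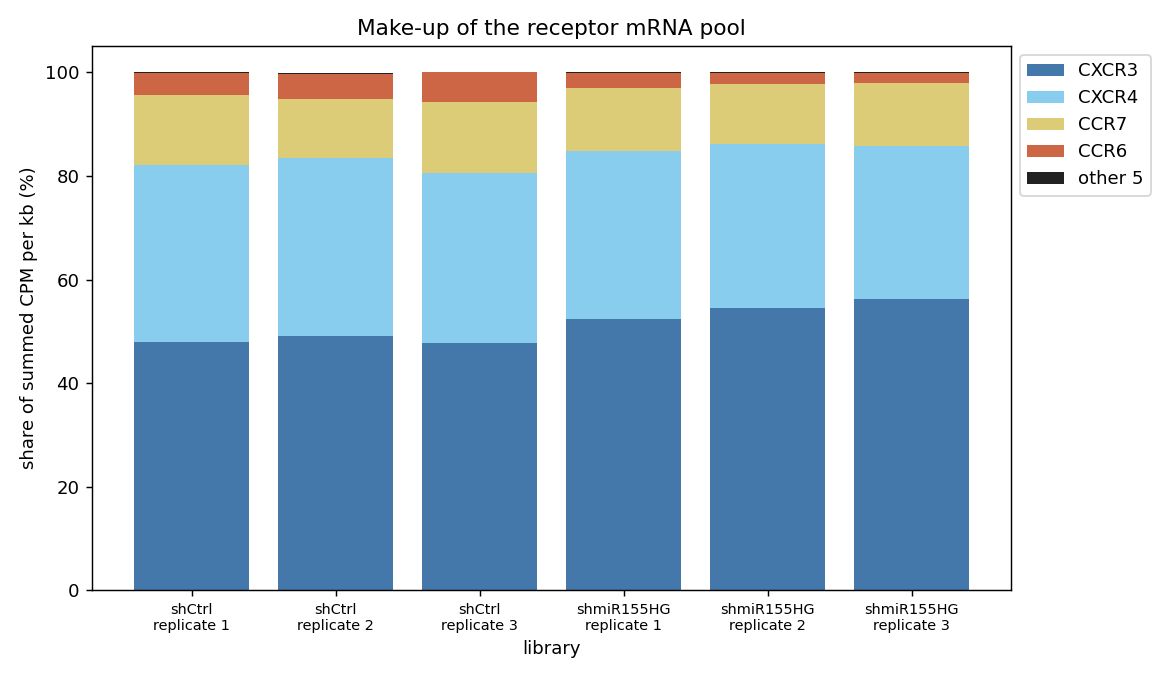
Share (%) of each receptor in the CPM per kb summed over the 9 receptors (y axis), with 1 stacked bar per library and the 5 receptors with few counts drawn together. CXCR3 takes 47.7% to 49.1% of the pool in shCtrl and 52.4% to 56.2% in shmiR155HG libraries, and CCR6 takes 4.28% to 5.69% and 1.81% to 2.89%.

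The other 5 receptors did not pass the filter, and their values come from a fit of all genes with at least 1 count, chosen after seeing the data. CX3CR1 (ENSG00000168329, minus strand, chr3:39263495-39281735), the fractalkine receptor known from mature cytotoxic NK cells, had 0, 9 and 6 counts in shCtrl libraries, and 27, 20 and 8 in shmiR155HG libraries. The groups overlapped, since shmiR155HG replicate 3 lay below shCtrl replicate 2. The log2 fold change was 1.85 (SE 1.01, 95% interval −0.12 to 3.83, adjusted p = 0.325), between 1.28 and 2.61 with 1 library left out, and CX3CR1 did not pass the test.

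CCR10 (ENSG00000184451, minus strand, chr17:42678889-42683917), the receptor for the skin and mucosal chemokines CCL27 and CCL28, had 9, 24 and 5 counts in shCtrl libraries, and 10, 15 and 19 in shmiR155HG libraries. The range of the shmiR155HG libraries lay within that of the shCtrl libraries. On the log2 scale the difference was 0.26 (SE 0.87, 95% interval −1.44 to 1.96, adjusted p = 0.921), and it turned in sign without shCtrl replicate 3 (−0.13) or shmiR155HG replicate 3 (−0.051). CCR10 overlaps CNTNAP1 on the opposite strand, with 16 to 42 counts per library, and whether counting used the strand is not given in the sources used here, so single reads could belong to either gene.

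CCR4 (ENSG00000183813, plus strand, chr3:32951644-32956349), the receptor for CCL17 and CCL22, had 6 counts in shCtrl replicate 1, 11 in shmiR155HG replicate 2 and 0 in the other 4 libraries. CXCR5 (ENSG00000160683, plus strand, chr11:118883892-118897787), the CXCL13 receptor of follicular lymphocytes, had 3 counts in shCtrl replicate 1 and 0 in the other 5 libraries. CXCR5 overlaps BCL9L on the opposite strand, which had 341 to 468 counts per library. CCR8 (ENSG00000179934, plus strand, chr3:39329709-39333680), the receptor for CCL1, had 0 counts in all 6 libraries. A count of 0 allows a level of up to 0.0766 to 0.0897 CPM depending on the library (3 counts, counting error only), so no fold change is given for these 3 receptors.

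**Figure D3:**
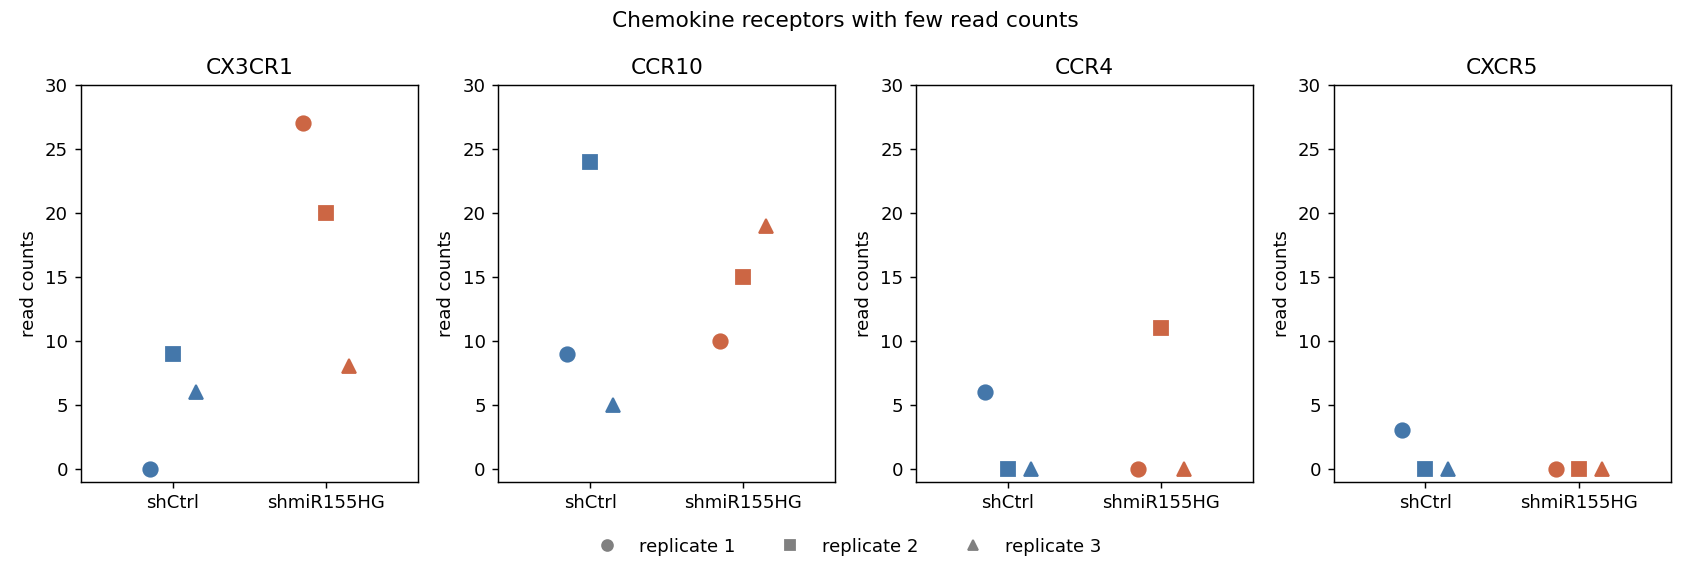
Read counts (y axis) of CX3CR1, CCR10, CCR4 and CXCR5 in the 3 shCtrl (blue) and 3 shmiR155HG (orange) libraries, with 1 point per library and no mean drawn. CX3CR1 reaches 9 counts in shCtrl and 27 in shmiR155HG libraries with overlap, CCR10 lies between 5 and 24 counts, and CCR4 and CXCR5 are at 0 in most libraries.

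The gene lists that follow were chosen with earlier results of these data known. The share called in a list is thus a description, and it was not matched to all genes for expression level. Of 15 genes for ligands of the 9 receptors, 1 passed the filter. In all 6 libraries, 8 were at 0 counts, among them CCL20, CCL19, CCL21, CXCL9, CXCL12 and CX3CL1. The ligand tested was CCL18, which has been described as a ligand of CCR8, with 41.6 ± 2.02 CPM in shCtrl and 37.9 ± 4.14 CPM in shmiR155HG cells (SD, n = 3 each). On the log2 scale the difference was −0.13 (SE 0.081, 95% interval −0.30 to 0.032, adjusted p = 0.304).

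Of 14 other chemokine receptor genes, those of the 3p21 cluster and the atypical receptors included, 9 were tested. Among these 3 were lower, none was higher and 6 did not pass the test, so that 33.3% were called, against 15.3% of all genes tested (8.02% lower). The median log2 fold change was −0.40, against 0.00097 over all genes tested. The 3 were CCR1 (log2 fold change −0.38, adjusted p = 1.46e-08), the CXCL16 receptor CXCR6 (−1.35, adjusted p = 0.0116) and the XCL1 receptor XCR1 (−2.46, adjusted p = 8.96e-04). CXCR6 no longer passed without shCtrl replicate 3 (adjusted p = 0.0505) or without shmiR155HG replicate 2 (0.0673). XCR1 rests on few counts, with 47, 48 and 60 in shCtrl libraries and 14, 8 and 5 in shmiR155HG libraries. CXCR6 had 85, 79 and 109 counts in shCtrl libraries and 37, 25 and 40 in shmiR155HG libraries. Thus CCR6 fell by less on the log2 scale than the fitted values of CXCR6 and XCR1, which are less certain, and by more than CCR1. These differences were not tested. CXCR1, an IL-8 receptor named after its values were seen, had 19 to 29 counts in shCtrl and 30 to 66 in shmiR155HG libraries (log2 fold change 1.23, adjusted p = 0.0635), so that CXCR3 was the only receptor of either list that passed the test as higher.

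Transcription factors with known links to these receptors were followed in a list of 12, of which 9 were tested. Here 4 were higher, 1 was lower and 4 did not pass the test, with a median log2 fold change of 0.24. The share called was 55.6%, against 15.3% of all genes (7.26% higher and 8.02% lower), in a list chosen with earlier results known. TBX21, which encodes T-bet, an activator of CXCR3 in lymphocytes, was at 247.8, 256.4 and 253.2 CPM in shCtrl libraries, and at 293.6, 307.0 and 312.5 CPM in shmiR155HG libraries. Each knockdown library lay above each control library, and TBX21 rose by 0.27 on the log2 scale (SE 0.037, adjusted p = 4.99e-06). EOMES, the related T-box factor of NK cells, rose by 0.32 (SE 0.039, adjusted p = 7.74e-07).

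KLF2, a factor of lymphocyte trafficking, had 37, 84 and 79 counts in shCtrl libraries, and 182, 180 and 164 in shmiR155HG libraries, without overlap between the groups. KLF2 thus rose by 1.44 on the log2 scale (SE 0.29, adjusted p = 8.94e-04). GATA3, known as a driver of CCR4 and CCR8 in T cells, rose by 0.54 (SE 0.11, adjusted p = 0.00107), while those receptors had at most 11 counts in a library. RORA, linked to CCR6 in T cells, fell by 0.26 on the log2 scale (SE 0.072, adjusted p = 0.0132). RORA did not pass without shCtrl replicate 1 (adjusted p = 0.0657), shmiR155HG replicate 1 (0.0521) or shmiR155HG replicate 3 (0.132).

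**Figure D4:**
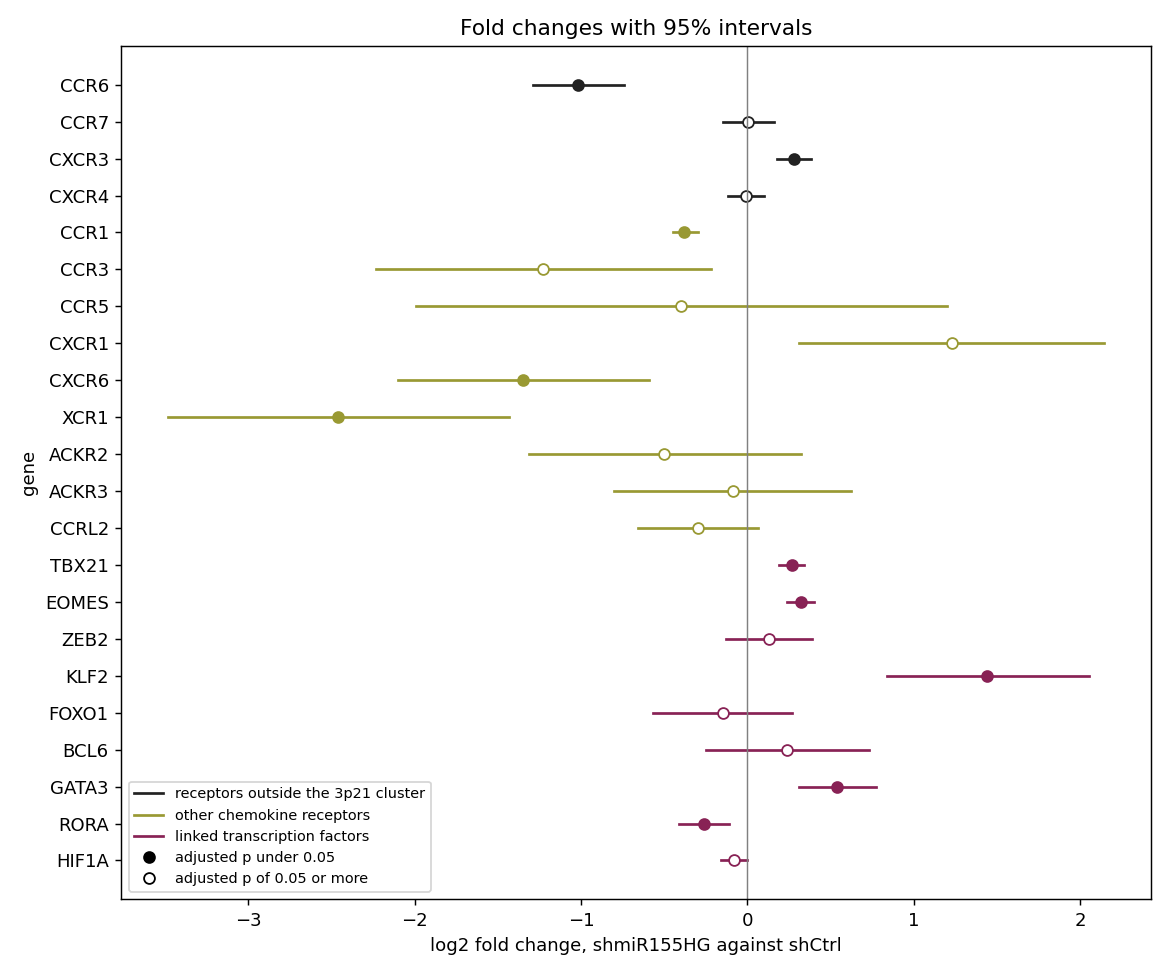
Log2 fold change of shmiR155HG against shCtrl cells (x axis) with its 95% interval for the 4 receptors tested, 9 other chemokine receptors and 9 linked transcription factors (y axis), where filled points passed an adjusted p of 0.05. CCR6 lies at −1.02, CXCR3 at 0.28, CCR7 and CXCR4 near 0, XCR1 lowest at −2.46 and KLF2 highest at 1.44.

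Among genes that couple the receptors to G proteins or end their signal, 19 of 22 were tested, and 3 were higher, 2 were lower and 14 did not pass the test, with a median log2 fold change of −0.000060. This was 26.3% called, against 15.3% of all genes. RGS16, which speeds up the inactivation of Gi, rose from 253.6 ± 4.76 to 329.1 ± 8.63 CPM (SD, n = 3 each), by 0.38 on the log2 scale (adjusted p = 1.34e-08). GNG2, a γ subunit, fell from 371.7 ± 18.7 to 293.5 ± 7.04 CPM, by 0.34 (adjusted p = 2.04e-07). The receptor kinase GRK6 (−0.15, adjusted p = 0.0118) and the Gi and Gq regulator RGS2 (0.61, adjusted p = 0.0296) also passed, as did the receptor kinase GRK3 (1.56, adjusted p = 0.0305), whose counts were 8 to 47 per library. GRK6 did not pass without shCtrl replicate 2 (0.0584) or shmiR155HG replicate 2 (0.0839). RGS2 did not pass without shCtrl replicate 2 (0.0575), shCtrl replicate 3 (0.129), shmiR155HG replicate 1 (0.0940) or shmiR155HG replicate 3 (0.102). GRK3 did not pass without the filter (0.0631), with filterByExpr (0.0782), or without shCtrl replicate 2 (0.127), shCtrl replicate 3 (0.0931) or any 1 of the 3 shmiR155HG libraries (0.0568 to 0.0961). GNAI2, the main Gi α subunit of leukocytes, chosen with its values known, did not pass the test (log2 fold change 0.057, adjusted p = 0.454).

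Of 22 genes for directed migration downstream of the receptors, 21 were tested, with 3 higher, 3 lower, 15 that did not pass the test and a median log2 fold change of 0.014. Thus 28.6% were called, against 15.3% of all genes. The GTPase RAP1A rose by 0.23 (adjusted p = 7.33e-05), its activator RASGRP2 by 0.41 (adjusted p = 0.0274) and the CDC42 exchange factor DOCK8 by 0.21 (adjusted p = 1.01e-04). CDC42 itself fell by 0.14 (adjusted p = 0.00692), the phospholipase PLCB2 fell by 0.21 (adjusted p = 0.00607) and the RAC exchange factor DOCK2 fell by 0.094 (adjusted p = 0.0476). RASGRP2 did not pass without shCtrl replicate 1 (0.0540), shCtrl replicate 2 (0.176) or shmiR155HG replicate 3 (0.213), PLCB2 without shmiR155HG replicate 1 (0.0581) and CDC42 without shmiR155HG replicate 2 (0.0552). DOCK2 passed in 5 of 15 alternatives.

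Of 12 homing partners such as integrins and sphingosine 1-phosphate receptors, 8 were tested, of which 2 were lower, none was higher and 6 did not pass the test, with a median log2 fold change of −0.099. Called were 25.0%, against 15.3% of all genes (8.02% lower). ITGB7, the integrin β7 chain of gut homing, fell from 266.0 ± 12.2 to 197.4 ± 1.92 CPM (SD, n = 3 each), by 0.43 on the log2 scale (adjusted p = 5.51e-09). ITGB2, the β2 chain shared by LFA-1 and Mac-1, fell by 0.23 (adjusted p = 6.07e-06).

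For the 2 receptors past the test, the genes most like them over the 6 libraries were sought by the Pearson correlation of log2 CPM, among the 9721 genes that averaged 5 CPM or more. CCR6 was closest to RAC3 (r = 0.9966), PTPN11 (r = 0.9964) and RGL1 (r = 0.9940). CXCR3 was closest to LINC02043 (r = 0.9922), GPD2 (r = 0.9905) and TRMU (r = 0.9894). These points share 6 libraries and 2 groups, 137 genes had an r over 0.95 with CCR6 and 91 with CXCR3, and of the 6 genes named only RGL1 (log2 fold change −0.52, adjusted p = 0.0435) and GPD2 (0.47, adjusted p = 0.0195) passed the test between the groups.

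**Figure D5:**
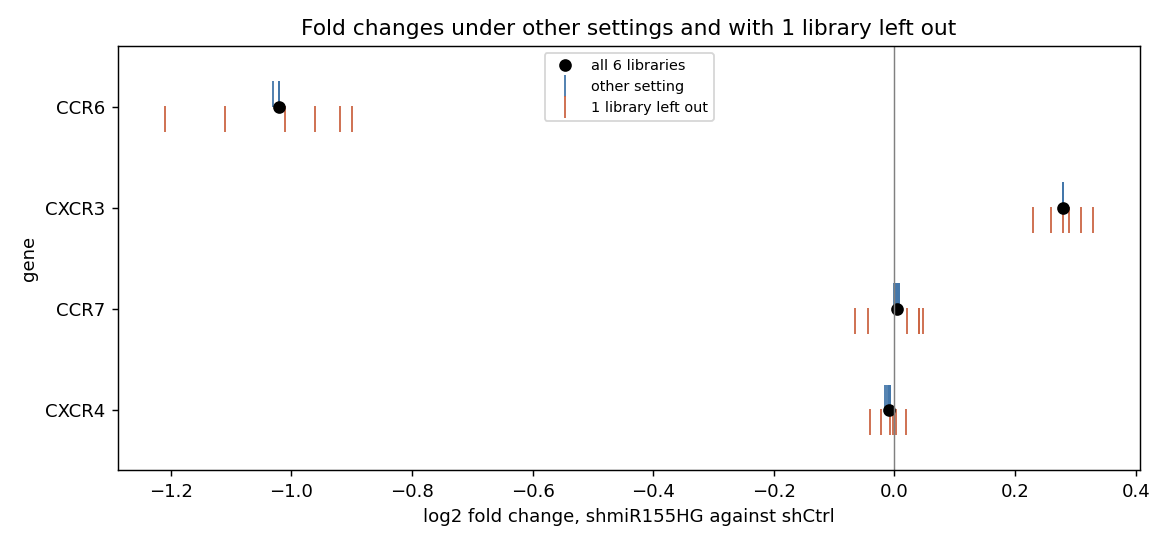
Log2 fold change of the 4 receptors tested (x axis; receptors on the y axis) with all 6 libraries (black points), under the other settings (blue ticks) and with 1 library left out (orange ticks). CCR6 stays between −1.21 and −0.90 and CXCR3 between 0.23 and 0.33, while the ticks of CCR7 and CXCR4 lie on both sides of 0.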

How the data were processed

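RNA-seq of NK92 cells gave 1 gene table for 6 libraries. The authors deposited whole-number read counts per gene without normalization. They captured poly(A) RNA with oligo(dT) beads, used HISAT2 to align read pairs of 150 bases with hg38, quantified annotated transcripts with StringTie and made the table with prepDE.py3. The annotation release, strand setting and tool versions are not given in the sources used here. The default read length of prepDE.py3 is 75 bases, so a count may stand for less than 1 read.

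Groups were taken from the sample titles, as the treatment field of 2 shmiR155HG libraries spells the gene with another number. Genes above 1 CPM in 2 or more libraries were tested, with TMM scaling. The groups were compared with the quasi-likelihood test of edgeR 4.0.16 in R 4.3.3 (robust, two-sided, Benjamini-Hochberg over all 12263 genes). SEs belong to log2 fold changes, and intervals are not adjusted for the number of genes. Alternatives used other scalings, filters and tests (DESeq2 1.42.0, limma-voom 3.58.1, edgeR's exact test), halved counts, the replicate block and each library left out, and the code was tested on simulated data. No library was a copy of another of its group: the chi-square between replicates averaged 7.35 to 10.9 per gene. Counting noise alone gives about 1 if a count stands for 1 read, and more if it stands for less. Positions and transcripts are from GENCODE 44 (hg38), and microRNA and start-window sequences from RefSeq (GRCh38.p14).

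Receptors and lists were chosen with earlier results of these data known. The genes named were the receptors and MIR155HG, from each list every gene past the test when at most 5, otherwise the 3 with the smallest adjusted p in each direction, each ligand past the filter, and for each receptor past the test the 3 genes most like it.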

Additional observations from a re-analysis of the deposited data

How the results depend on the processing

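CCR6 and CXCR3 kept their direction and stayed past an adjusted p of 0.05 in all 15 alternatives, with adjusted p from 2.51e-17 to 4.58e-04 for CCR6 and from 2.91e-07 to 0.00479 for CXCR3, and the count of receptors called was 1 lower and 1 higher in each. CCR7 and CXCR4 passed in none. The sign of CCR7 turned without a filter (−0.00011), and single libraries left out gave −0.066 to 0.047 for CCR7 and −0.041 to 0.019 for CXCR4. CCR10 in the fit without a filter gave −0.13 to 1.16. Over all genes, leaving out 1 library gave 580 to 891 genes higher and 674 to 917 lower, against 890 and 984, the lowest of both without shmiR155HG replicate 2. With a common dispersion in the exact test, the study's rule called 1017 genes higher and 720 lower, against 551 and 466. The counts that the paper reports lie between these versions in both directions, and the cause was not tested. Of 22 list genes named, 13 kept side and direction in every alternative and none turned in sign. The scaling moved the median log2 fold change of all genes to at most 0.0034. With the replicate block, 829 genes were higher and 909 lower, CCR6 was at −1.03 and CXCR3 at 0.28, and the block ended the call of DOCK2 alone (−0.094, adjusted p = 0.0800) among the 22 list genes named. RGL1, GPD2 and the cell type markers were not run under the alternatives. Same-numbered libraries did not deviate together (correlations 0.0111, −0.0137 and −0.0410), so the numbers were not read as pairs. The 5 receptors outside the filter had at most 27 counts in a library.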

Other observations

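Among the markers of other cell types, PAX5 and TRAC, named after their values were seen, stood far above the other genes of their lists. PAX5, a B cell transcription factor, was at 244.1 CPM in shCtrl and 341.6 CPM in shmiR155HG cells (log2 fold change 0.49, adjusted p = 1.70e-09), while MS4A1 and CD79B had at most 8 counts in a library. TRAC, the constant region of the T cell receptor α chain, was at 72.4 CPM in both groups, while CD3G and CD5 had at most 3 counts in a library.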
